A study of Mus musculus with 19 samples.

Results

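The 3 clusters of olfactory receptor (Olfr) genes examined here lie on mouse chromosomes 2, 7 and 9, at chr2:85000001-90300000, chr7:109500001-115000000 and chr9:37400001-40000000 of the genome build NCBIM37. They were taken by position alone, as all 2 kb tiles of these intervals with at least 1 read in the input library. Of 6700 tiles in the intervals, 6344 were kept, out of 1242015 kept tiles in the whole series. The cluster on chromosome 2 held 2506 of them, that on chromosome 7 held 2567 and that on chromosome 9 held 1271. The 356 tiles without input reads had a median of 0 reads over all 18 ChIP libraries together. The 110 tiles with 1 input read had a median of 27.5.

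The intervals contained 538 annotated Olfr genes, 472 of them protein-coding and 66 pseudogenes, out of 1251 in the annotation. There were 268 on chromosome 2, 173 on chromosome 7 and 97 on chromosome 9. The label thus held for all 3 intervals, although that on chromosome 7 also contained 62 protein-coding genes of other kinds, among them the beta-globin (Hbb) genes, Trim genes and Dchs1. On chromosome 7 the Olfr array did not end with the interval, since 39 further Olfr genes lay in the next 1.5 Mb.

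Olfactory receptors are G protein-coupled receptors of the olfactory sensory neurons of the nose, and together they form the largest gene family of the mouse. Each neuron expresses a single receptor allele, and in these neurons the silent receptor genes are packed into heterochromatin that carries H3K9me3. In embryonic stem cells (ESCs) the receptor genes are silent, and the clusters are known as gene-dense but AT-rich and CpG-poor stretches of the genome. H3K9me2 and H3K9me3 are histone marks of heterochromatin, and H3K27me3 is the mark laid down by Polycomb.

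The central 300 bases of the tile with the highest H3K9me3 level over input in each cluster (at least 5 input reads) are printed below. They are read from the plus strand of NCBIM37, with each CpG, the site of DNA methylation by DNMT1, in capitals. The tiles held 5, 8 and 6 input reads on chromosomes 2, 7 and 9, against medians of 16, 15 and 16 per tile in the clusters. Which part of a tile carried the mark is not resolved. All 3 tiles lay between genes. The tile on chromosome 2 (chr2:87772851-87773150 printed) was 8839 bp from Olfr1155, that on chromosome 7 (chr7:113706851-113707150) was 36757 bp from Gm1966, and that on chromosome 9 (chr9:39470851-39471150) was 4644 bp from Olfr963.

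chromosome 2 tile: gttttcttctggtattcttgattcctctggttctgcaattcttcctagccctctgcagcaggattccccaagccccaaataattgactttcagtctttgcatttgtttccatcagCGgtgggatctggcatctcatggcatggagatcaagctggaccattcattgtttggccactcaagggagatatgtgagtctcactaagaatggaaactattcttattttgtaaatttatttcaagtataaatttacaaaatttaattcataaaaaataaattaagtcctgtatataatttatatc

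chromosome 7 tile: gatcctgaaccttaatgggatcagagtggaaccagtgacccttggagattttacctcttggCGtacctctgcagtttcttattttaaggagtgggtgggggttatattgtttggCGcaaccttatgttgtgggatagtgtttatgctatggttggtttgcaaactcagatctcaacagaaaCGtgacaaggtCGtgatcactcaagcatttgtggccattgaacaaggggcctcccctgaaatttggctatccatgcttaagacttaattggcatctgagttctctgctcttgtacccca

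chromosome 9 tile: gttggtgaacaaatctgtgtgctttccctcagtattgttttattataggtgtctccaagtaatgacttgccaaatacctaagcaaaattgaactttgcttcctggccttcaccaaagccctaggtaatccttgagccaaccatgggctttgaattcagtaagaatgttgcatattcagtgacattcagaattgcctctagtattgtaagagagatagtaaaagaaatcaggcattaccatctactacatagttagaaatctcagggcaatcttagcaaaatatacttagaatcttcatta

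The stretches held 1, 4 and 0 CpG, and the whole tiles held 4, 35 and 9. Low CpG content was general in the clusters. The median tile had 8, 10 and 8 CpG on chromosomes 2, 7 and 9, against 14, 14 and 15 in the rest of the same chromosomes. Median GC content was 37.0%, 40.1% and 37.8%, against 41.8%, 43.1% and 42.7% in the rest. No tile with 80 or more CpG lay in the clusters on chromosomes 2 and 9, and 11 lay in that on chromosome 7. RefSeq promoter windows (GRCm38.p6, 250 bases before to 50 after the start) were found for 390 of the 538 Olfr genes. These 392 promoters had a median of 1 CpG, 34.4% of them had none and 0 had 10 or more. Among all 32851 promoters the median was 7, 5.43% had none and 43.5% had 10 or more.

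The study profiled H3K27me3, H3K9me2 and H3K9me3 by chromatin immunoprecipitation and sequencing (ChIP-seq) in mouse ESCs, pluripotent cells from the early embryo, to ask how these marks respond when DNA methylation is lost. Control cells were compared with Dnmt1 conditional knockout (cKO) cells, labelled Dnmt1 KO, which lack the enzyme that maintains DNA methylation, 4 and 8 days after deletion. For each mark the day 4 samples were a single control and a single cKO library (replicate 1), the day 8 samples 2 of each, and 1 input library from control cells served all 18 ChIP libraries. The labels give the control as wild type and the strain as E14 for every library, whereas the methods describe Dnmt1 loxP/loxP ESCs of strain C57BL/6. The design text calls the day 8 libraries biological replicates, and whether they came from separate cultures or clones is not stated, so their spread may be technical in part. The methods state that the ChIP-seq data rested on a single measurement, for which reason the authors called no significant differences.

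The ChIP libraries held 5669098 to 26181489 reads in tiles. The library from day 8 H3K9me3 cKO replicate 1 was the shallowest, with a median of 3 reads per tile against 11 to 17 in the other ChIP libraries. At Dnmt1 itself, the tile chr9:20744001-20746000 had 49 reads over the day 8 control libraries and 1 over the day 8 cKO libraries, and 23 and 9 at day 4. A tile on chromosome 2 outside the cluster, chr2:98506001-98508000, held between 31.6% and 38.3% of all H3K9me3 reads of the rest of that chromosome and 14.7% of the input reads. Levels on chromosome 2 are also given without the 1% of tiles with the highest input.

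H3K27me3 was below the rest of the chromosome in all 3 clusters. This did not hold after correction for GC content, with 2 of 6 libraries above the rest on chromosome 2 and 6 of 6 on chromosomes 7 and 9. The level of a cluster is given as the log2 of its reads per tile over those in the rest of the same chromosome, minus the same quantity in input, so that 0 means no enrichment beyond input. H3K27me3 was below 0 in all 6 libraries in each cluster, with means of -0.46 ± 0.13 on chromosome 2, -0.25 ± 0.06 on chromosome 7 and -0.40 ± 0.06 on chromosome 9 (SD, n = 6). These means and SDs, and those of the other marks, pool control and cKO libraries of both days. On chromosome 2 the control libraries were at -0.54 (day 4), -0.56 and -0.44 (day 8), and the cKO libraries at -0.54, -0.48 and -0.20. The day 8 cKO library of replicate 2 was the highest of the 6 in all 3 clusters, and control and cKO libraries overlapped in each.

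H3K9me2 stood near the level of the rest of the chromosome, at 0.05 ± 0.08, -0.03 ± 0.07 and -0.11 ± 0.08 on chromosomes 2, 7 and 9. On chromosome 2 the control libraries were at 0.09 (day 4), 0.16 and 0.08 (day 8), and the cKO libraries at 0.05, -0.05 and -0.02. Control libraries were thus all above cKO libraries, without overlap, and the same held on chromosomes 7 and 9.

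H3K9me3 was below the rest of the chromosome in all 6 libraries, at -0.13 ± 0.08 on chromosome 7 and -0.20 ± 0.14 on chromosome 9. Without the 1% of tiles with the highest input, the value for chromosome 9 was -0.07, with 2 of 6 libraries above 0. The value for chromosome 2 was -0.55 ± 0.18 and rested on the heavy tile outside the cluster. Without those tiles it was 0.02, and those for H3K27me3 and H3K9me2 were -0.68 and -0.07. In the chromosome 7 cluster the control libraries were at -0.08 (day 4), -0.07 and -0.02 (day 8), and the cKO libraries at -0.16, -0.25 and -0.19. On chromosome 9 the control libraries were at -0.12, -0.14 and -0.03 and the cKO libraries at -0.22, -0.41 and -0.31. In both clusters every cKO library was below every control library.

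**Figure D1:**
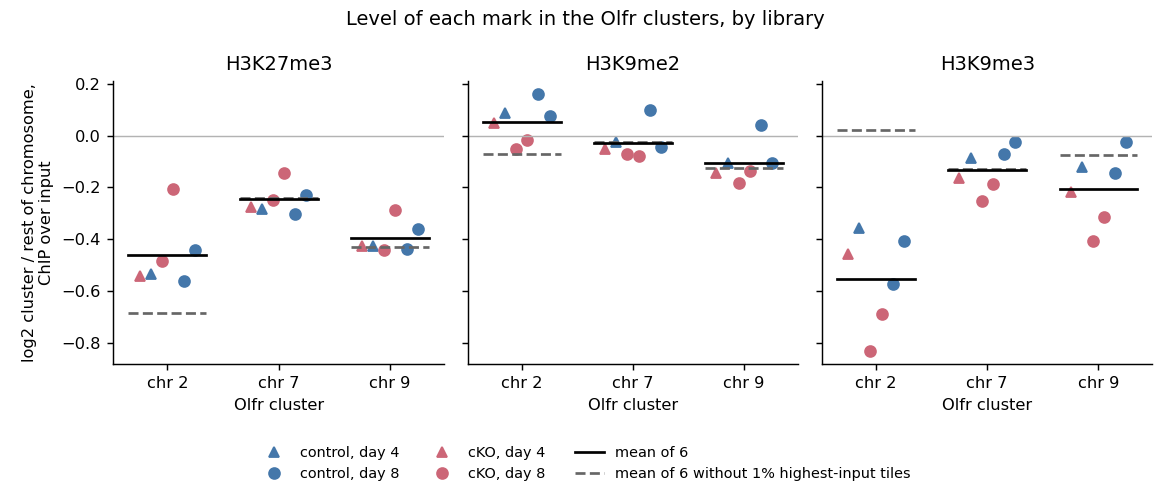
Level of each mark in the Olfr clusters on chromosomes 2, 7 and 9, as log2 of the cluster over the rest of its chromosome, ChIP over input (vertical axis). Each point is 1 library (blue control, red cKO, triangles day 4, circles day 8), solid lines are the means of 6 libraries and dashed lines the means without the 1% of tiles with the highest input. H3K27me3 points are all below 0, and the dashed line for H3K9me3 on chromosome 2 lies at 0.02 while the solid line lies at -0.55.

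For H3K27me3 and for H3K9me3 in the 3 clusters, an exact test that flips the signs of the 6 values gave p = 0.03125, the smallest it can give (two-sided, adjusted p = 0.0469 over 9 tests, Benjamini-Hochberg). H3K9me2 did not pass, with adjusted p of 0.176, 0.344 and 0.0804. An adjusted p under 0.05 needs at least 6 of the 9 tests at the smallest p, and all libraries share 1 input. The 6 values pool control and cKO libraries of both days, which are not replicates of a single condition. For H3K9me3 on chromosome 7 the control libraries were at -0.08, -0.07 and -0.02, and the cKO libraries at -0.16, -0.25 and -0.19. The control libraries alone were not tested. Comparisons between marks and between clusters pool the libraries in the same way. The calls for H3K27me3 and H3K9me3 held when tiles without input reads were included (adjusted p = 0.0469), but not under the settings that follow. Without the 1% of tiles with the highest input the lowest adjusted p was 0.0703, and with the mean of the deposited values or with the whole genome as reference it was 0.0938, so that no level passed. When each tile was set against tiles of the same GC content, H3K27me3 was at -0.01, 0.14 and 0.17 on chromosomes 2, 7 and 9. H3K9me2 was then at 0.19, 0.09 and 0.11 and H3K9me3 at 0.29, -0.01 and 0.17. After this correction H3K27me3 on chromosomes 7 and 9, H3K9me2 in all 3 clusters and H3K9me3 on chromosomes 2 and 9 were above 0 in 6 of 6 libraries (exact sign-flip test, adjusted p = 0.0402).

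Between marks, H3K27me3 was lower than H3K9me2 in all 3 clusters, by 0.51 on chromosome 2, 0.22 on chromosome 7 and 0.29 on chromosome 9 on the log2 scale (exact permutation of 6 against 6 libraries, adjusted p = 0.00487 over 9 tests in each). H3K27me3 was also lower than H3K9me3 by 0.12 on chromosome 7 and 0.19 on chromosome 9 (adjusted p = 0.0390 and 0.0273). With libraries matched by day, genotype and replicate number, no difference between marks passed (exact sign-flip test, lowest adjusted p = 0.0703). On chromosome 2 H3K27me3 and H3K9me3 differed by 0.09 (adjusted p = 0.346), and by -0.71 without the highest-input tiles. After correction for GC content, chosen here after seeing the data, H3K27me3 was still lower than H3K9me2 on chromosome 2, by 0.21 on the log2 scale, but higher on chromosome 7 by 0.05 and on chromosome 9 by 0.06 (exact permutation, adjusted p = 0.00974, 0.0511 and 0.0390). H3K27me3 minus H3K9me3 was then -0.31, 0.15 and -0.0056 on chromosomes 2, 7 and 9 (adjusted p = 0.00974, 0.00974 and 0.814).

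Between clusters, H3K27me3 was lower on chromosome 2 than on chromosome 7 in 6 of 6 libraries, by 0.22 ± 0.08, and higher on chromosome 7 than on chromosome 9 by 0.15 ± 0.02. Both differences passed the exact sign-flip test (adjusted p = 0.0352 over 9 tests), and that between chromosomes 2 and 9 did not (-0.07 ± 0.08, adjusted p = 0.125). Without the highest-input tiles chromosome 2 was below chromosome 9 in 6 of 6 libraries, by -0.25 (exact sign-flip test, adjusted p = 0.0352). After correction for GC content, H3K27me3 on chromosome 7 was below that on chromosome 9 in 6 of 6 libraries, by -0.03. H3K9me2 fell in the order chromosome 2, 7 and 9, with steps of 0.08 ± 0.04 and 0.08 ± 0.02 (adjusted p = 0.0352 each), but chromosome 2 was below chromosome 7 by -0.05 without the highest-input tiles, and chromosome 7 below chromosome 9 by -0.02 after correction for GC content. H3K9me3 was higher on chromosome 7 than on chromosome 9 by 0.07 ± 0.06, and the difference was -0.06 without those tiles and -0.19 after correction for GC content. H3K9me3 was lower on chromosome 2 than on chromosomes 7 and 9 by 0.42 and 0.35 on the log2 scale, and higher by 0.15 and 0.10 without those tiles, and by 0.31 and 0.12 after correction for GC content, so the order of the clusters in H3K9me3 depended on these settings.

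Upon Dnmt1 deletion, H3K9me3 in the clusters was lower against the rest of the chromosome in every pair of libraries. At day 4 the difference between cKO and control was -0.10 on chromosome 2, -0.08 on chromosome 7 and -0.10 on chromosome 9 (log2, 1 pair). At day 8 it was -0.26 and -0.28 on chromosome 2, -0.18 and -0.16 on chromosome 7, and -0.26 and -0.29 on chromosome 9. The day 8 means were -0.27 ± 0.02, -0.17 ± 0.01 and -0.28 ± 0.02 (SD, n = 2 pairs), which correspond to 0.829, 0.888 and 0.826 of the control level. All 3 clusters were lower at day 8 than at day 4, by more than the spread between the day 8 pairs (though not after correction for GC content), and the chromosome 7 cluster moved least.

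H3K9me2 was lower in cKO in all 3 pairs too, but less evenly. At day 4 the difference was -0.04, -0.03 and -0.04 on chromosomes 2, 7 and 9. At day 8, replicate 1 gave -0.21, -0.17 and -0.22, and replicate 2 gave -0.10, -0.03 and -0.03. The 2 replicates thus differed by more than the size of the smaller value, and the day 8 means were -0.15 ± 0.08, -0.10 ± 0.10 and -0.13 ± 0.14.

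H3K27me3 at day 4 differed by -0.01, 0.01 and -0.0014 on chromosomes 2, 7 and 9. At day 8 it was higher in cKO by 0.08 and 0.24 on chromosome 2 and by 0.05 and 0.08 on chromosome 7, and the 2 pairs gave -0.01 and 0.07 on chromosome 9. The largest of these values came from replicate 2 on chromosome 2. An exact sign-flip test over the 3 pairs gave p = 0.25 for H3K9me3 and for H3K9me2 in each cluster, the smallest p that 3 pairs allow, and p = 0.5, 0.25 and 1.0 for H3K27me3 on chromosomes 2, 7 and 9 (two-sided).

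**Figure D2:**
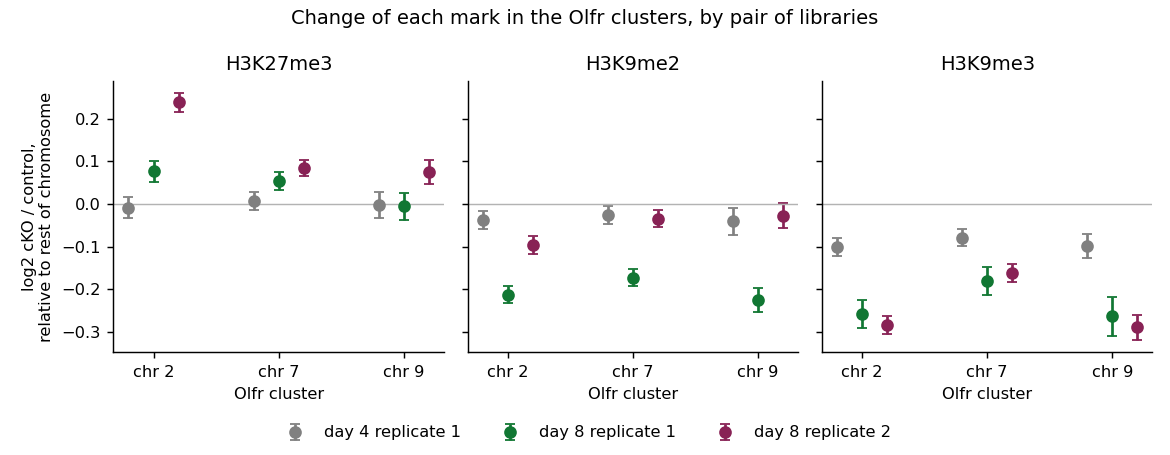
Change of each mark in each Olfr cluster, as log2 of cKO over control relative to the rest of the chromosome (vertical axis), for the day 4 pair and both day 8 pairs, with bars showing the 95% counting error. All H3K9me3 points are below 0, from -0.08 to -0.29, and the day 8 pairs lie below the day 4 pair in each cluster.

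The difference went with base composition. Across all 100 kb windows of the genome, the day 8 change in H3K9me3 was more negative in windows of lower GC content. The windows of the Olfr clusters were also lower at lower GC content. From 37% GC upward most of their medians lay below the line of the genome, but below 37% they lay above it. The single cluster window at 34 to 35% was at -0.14, against -0.33 over all 60 windows. At 35 to 36% the median was -0.33 over the 10 cluster windows and -0.35 over all 587. Among windows with 36 to 37% GC, the median change was -0.31 over all 1830 windows and -0.28 over the 31 in the clusters. At 39 to 40% GC it was -0.11 over all 2463 windows and -0.21 over the 17 in the clusters, and at 40 to 41% it was -0.04 over 2460 windows and -0.20 over the 12 in the clusters. In the 3 bins from 42 to 45% GC, with 4 cluster windows each, the medians of the clusters were -0.07, -0.03 and -0.04, against 0.09, 0.13 and 0.17 over all windows. In the bin from 41 to 42%, with 3 cluster windows, the median was above that of the genome, at 0.08 against 0.04. The single cluster windows at 45 to 46% and at 47 to 48% were at -0.12 and -0.31, against 0.18 and 0.19.

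After correction for GC content, on the mean of the deposited values, the day 8 means for H3K9me3 were -0.11 on chromosome 2, -0.05 on chromosome 7 and -0.09 on chromosome 9. All 9 pair values of H3K9me3 and all 9 of H3K9me2 remained below 0, the former between -0.03 and -0.16. The day 4 values of H3K9me3 were then -0.06, -0.05 and -0.03 on chromosomes 2, 7 and 9, and differed from the day 8 means by less than the spread between the day 8 pairs (SD 0.08, 0.02 and 0.07). The part of base composition in this difference was not tested beyond this.

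**Figure D3:**
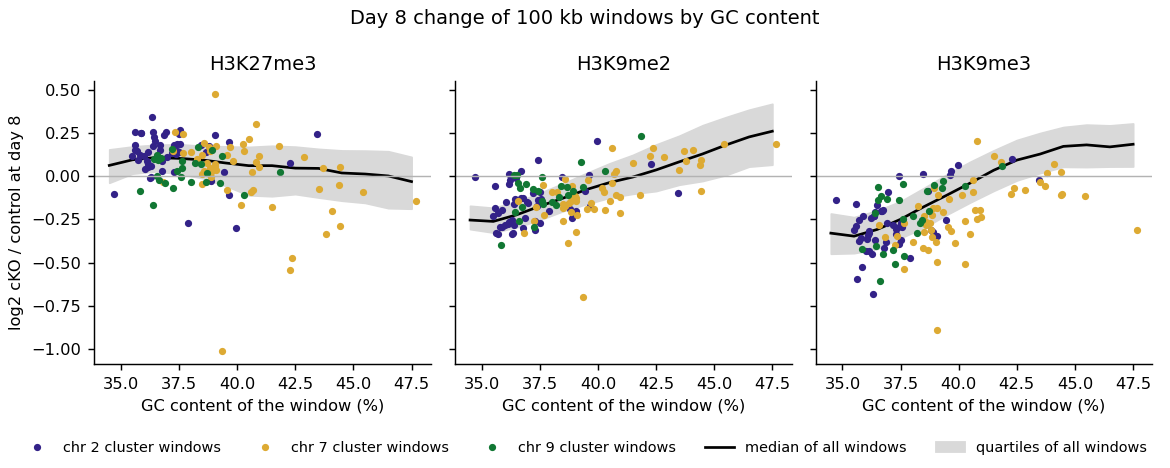
Day 8 change (log2 cKO over control, mean of 2 pairs) against GC content of 100 kb windows for each mark, with the median and quartiles of all windows of the genome (black line and grey band) and the windows of the 3 Olfr clusters (colored points). For H3K9me3 the line rises from -0.35 at the AT-rich end to 0.19 at 47 to 48% GC, and the cluster windows have medians of -0.28 at 36 to 37% and -0.20 at 40 to 41%.

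Lower H3K9me3 was seen in most windows of each cluster. Of 134 windows of 100 kb in the clusters, 94 (70.1%) were lower in cKO in all 3 pairs, against 30.1% of all 25515 windows tested, and 0 were higher in all 3 pairs, against 28.5%. By cluster, 38 of 53 windows on chromosome 2, 37 of 55 on chromosome 7 and 19 of 26 on chromosome 9 were lower in all 3. Without the pair that holds the shallow library, 101 windows were lower in both other pairs, against 34.5% of all windows. After correction for GC content, 60 (44.8%) were lower in all 3 pairs, against 21.4%.

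Windows rich in receptor genes and windows without them differed in their values. Of 100 windows with 3 or more Olfr genes, 76 were lower in all 3 pairs, with a median day 8 change of -0.27. Of 26 windows without Olfr genes, 15 were lower in all 3 pairs, with a median of -0.11. The median GC content was lower in the former than in the latter (40.9%), and the part of GC content in this difference was not tested. On chromosome 7 the lowest value without Olfr genes, -0.89 at chr7:113200001-113300000, came from a window with 74 input reads in 29 kept tiles.

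Just outside the intervals, values differed between flanks with and without receptor genes. In the 10 windows that follow the chromosome 7 interval, where 36 Olfr genes lie, the median day 8 change in H3K9me3 was -0.22 (GC 39.0%). In the 1 Mb flanks without Olfr genes it was -0.06 and -0.01 before and after the chromosome 2 interval, -0.05 before that on chromosome 7, and -0.04 and 0.16 before and after that on chromosome 9. These flanks were richer in GC, at 43.4% to 45.3%.

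By limma on all windows at day 8, 16 of the 134 windows were lower in H3K9me3 at an adjusted p under 0.05 and 0 were higher, against 5.68% lower and 1.5% higher over all windows. They were 5 windows on chromosome 2, 6 on chromosome 7 and 5 on chromosome 9. The lowest adjusted p was 0.0143, at chr2:85400001-85500000, a window with 9 Olfr genes in which the change was -0.19 at day 4 and -0.79 and -0.58 at day 8. Next was chr9:38900001-39000000, with 2 Olfr genes and changes of -0.12, -0.54 and -0.68 (adjusted p = 0.0179). The calls were not stable. They fell to 0 after centring each library on its median or after correction for GC content, as for 0.0% of all windows in both settings. The number called also depended on which library was left out. Each such fit leaves a single library in a group, and without day 8 cKO replicate 2 the only cKO library was the shallow one.

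**Figure D4:**
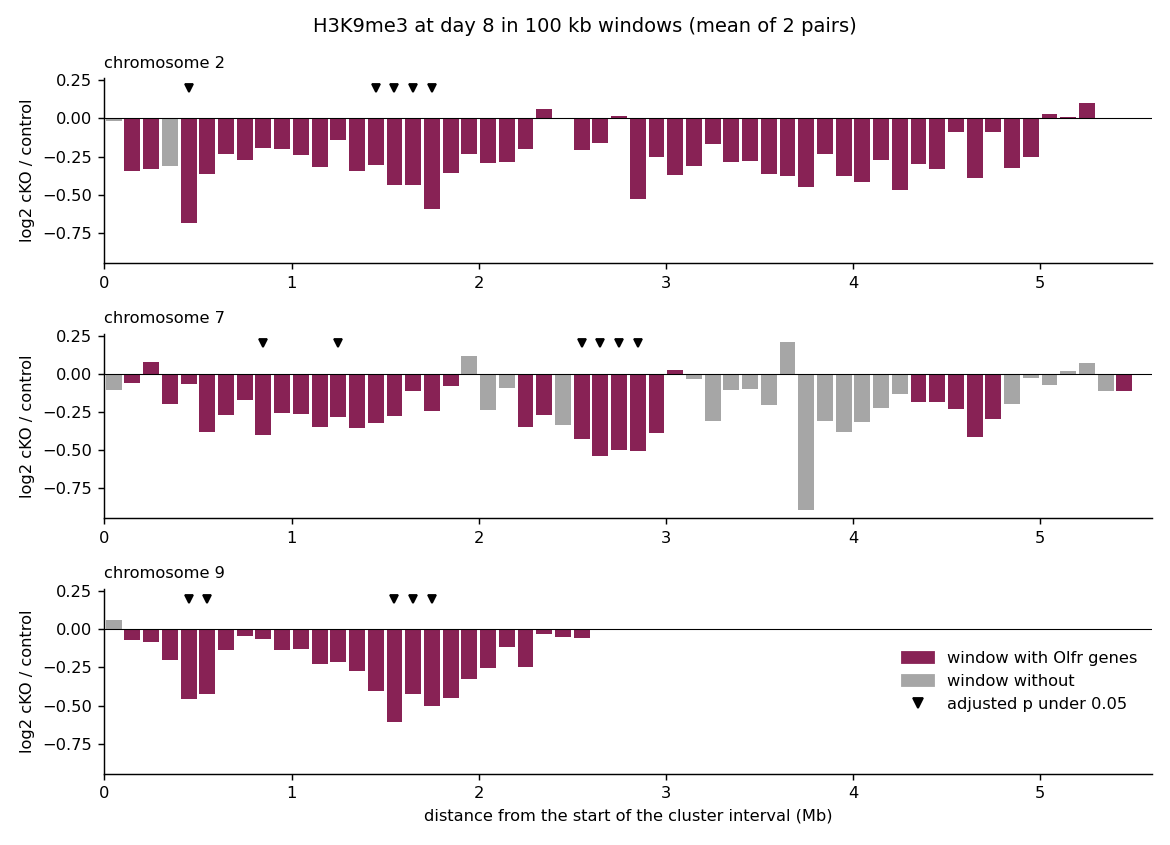
Day 8 change in H3K9me3 (log2 cKO over control, mean of 2 pairs) in consecutive 100 kb windows along each Olfr cluster, against the distance from the start of the interval in Mb. Windows with Olfr genes are purple, those without are grey, and triangles mark the 16 windows with an adjusted p under 0.05. Bars lie below 0 along most of each cluster.

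H3K9me2 was lower in all 3 pairs in 72 of the 134 windows (53.7%), against 28.2% of all windows, and higher in 14, against 26.8%. After correction for GC content 42 were lower in all 3, or 31.3% against 25.3%. On chromosome 7, 24 of the 31 windows with 3 or more Olfr genes were lower in H3K9me2 in all pairs, as were 5 of the 23 without any. Their median GC content was 38.8% and 40.8%, and its part was not tested. On chromosome 2 the counts were 27 of 48 and 2 of 2, and on chromosome 9 they were 9 of 21 and 0 of 1. H3K27me3 was higher in all 3 pairs in 33 windows (24.6%), against 31.2%, and lower in 16 (11.9%), against 20.6%. Over the 2 day 8 pairs alone it was higher in 81 (60.4%), against 48.5%. By limma, 0 windows of the clusters were called in either mark, against 0.0% of all windows, with 4 (2.99%) at an unadjusted p under 0.05 in each, against 11.1% of all windows for H3K27me3 and 7.63% for H3K9me2. Limma-voom also called 0.

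At single tiles, at least 2-fold lower H3K9me3 was seen at day 8 in 24.5% (replicate 1) and 13.7% (replicate 2) of the tiles in the clusters, against 18.4% and 8.72% in the rest of the 3 chromosomes and 18.6% and 9.31% in the genome. At least 2-fold higher H3K9me3 was seen in 8.02% and 3.17%, against 10.5% and 7.15% in the rest and 10.9% and 7.06% in the genome. Both shares were larger in replicate 1, whose cKO library was the shallow one. At day 4, 5.83% were lower and 5.14% higher, against 5.2% and 6.34% in the genome. H3K9me2 was at least 2-fold lower at day 8 in 9.69% and 5.34% of the tiles, against 7.28% and 5.1% in the genome, and higher in 3.69% and 7.46%, against 7.48% and 12.6%. At day 4, 6.67% were lower and 6.43% higher, against 5.91% and 8.75%. H3K27me3 was at least 2-fold higher at day 8 in 10.0% and 10.1% of the tiles, against 9.34% and 7.85%, and lower in 7.63% and 5.71%, against 8.16% and 8.0%. At day 4, 7.28% were higher and 8.43% lower, against 5.86% and 7.99%. For H3K27me3 the shares of the clusters were thus within a few percentage points of the genome. At least 2-fold higher H3K9me2 was less frequent in the clusters than in the genome in all 3 pairs.

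No tile was called by limma in any mark, against 0.0% of all tiles, with 480 tiles of the clusters (7.57%) at an unadjusted p under 0.05 for H3K9me3, against 6.35% of all tiles. For H3K9me2 there were 260 (4.1%, against 5.7%) and for H3K27me3 479 (7.55%, against 7.68%). Limma did call tiles of the clusters in H3K9me3 without day 8 cKO replicate 2, where the shallow library was the only cKO library.

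Over gene bodies, 537 of the 538 Olfr genes had tiles with input reads. In the control libraries the median level of H3K27me3 over input was -0.64, that of H3K9me2 0.04 and that of H3K9me3 -0.32, where all 30813 genes had medians of -0.18, -0.35 and -0.44. H3K27me3 was above input in 71 of the 537 genes (13.2%, against 44.1% of all genes), H3K9me3 in 138 (25.7%, against 25.9%) and H3K9me2 in 285 (53.1%, against 34.4%). By cluster, the genes on chromosome 7 had the highest medians in all 3 marks, at -0.36, 0.28 and -0.07, and those on chromosome 2 the lowest H3K27me3 and H3K9me3, at -0.86 and -0.45. Pseudogenes and protein-coding Olfr genes had like medians, at -0.30 and -0.32 for H3K9me3. The 712 Olfr genes outside the 3 intervals had medians of -0.43, 0.15 and -0.09.

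Of the 537 Olfr genes, 153 (28.5%) were lower in H3K9me3 in all 3 pairs, against 15.1% of all genes, and 29 (5.40%) were higher, against 23.0%. For H3K9me2, 128 (23.8%) were lower in all 3 pairs, against 8.54%, and 39 (7.26%) were higher, against 36.2%. For H3K27me3, 84 (15.6%) were higher, against 18.2%, and 56 (10.4%) were lower, against 33.0%. For both heterochromatin marks the share of lower genes was above the background, and for H3K27me3 it was below. All genes had a median GC content of 44.8%, against 36.5% for the Olfr genes. By limma no Olfr gene was called in any mark, as for 0.0% of all genes, with 81 (15.1%) of them at an unadjusted p under 0.05 for H3K27me3, against 16.6% of all genes. There were 18 (3.35%, against 4.04%) for H3K9me2 and 85 (15.8%, against 8.2%) for H3K9me3. Since alignments of low mapping quality had been discarded, near-identical receptor copies may hold fewer reads than they gave, and values of single genes are uncertain to that extent.

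A sharp peak of H3K27me3 stood out within the chromosome 2 cluster at Olfr1235-ps1, a receptor pseudogene on the minus strand at chr2:89225054-89230391. In the control libraries it held 435, 389 and 406 H3K27me3 reads over 4 tiles (day 4, then day 8), against 38 in input, or 9.21 times the input level. In the cKO libraries it held 249, 182 and 241. Scaled to library totals (reads per 1e6 reads, RPM), the control libraries had 18.96, 18.7 and 18.2 RPM and the cKO libraries 12.9, 9.02 and 9.20, so that all control libraries were above all cKO libraries. The change was -0.56 at day 4 and -1.05 and -0.98 at day 8 (log2), a day 8 mean of -1.02 ± 0.05.

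By limma over all genes this day 8 change had an adjusted p of 0.250. Limma-voom on the recovered reads called it, with an adjusted p of 0.0453, as it did 0.321% of all genes. Of tiles with at least 5 input reads, its inner tile chr2:89228001-89230000 had the highest H3K27me3 level over input in that cluster, with 6.01, 6.40 and 5.21 RPM in control and 3.92, 2.58 and 2.75 RPM in cKO, and with 6 input reads. That tile had 6 CpG, and its neighbour within the gene had 4, with 4 input reads, so that input was itself low over the gene. The tile chr2:89214001-89216000, outside the peak, held 15, 10 and 13 control reads against 16 in input. H3K9me3 had 5 to 7 control reads in the inner tile.

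**Figure D5:**
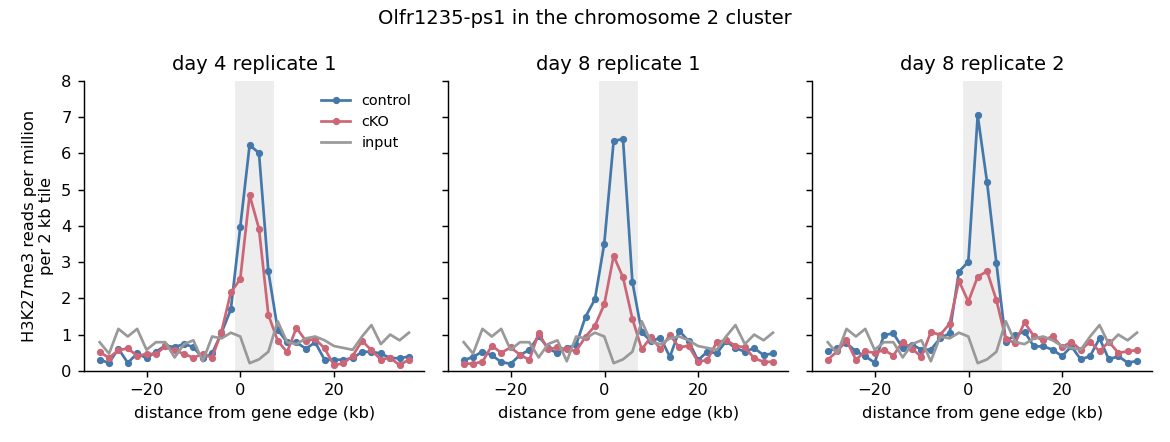
H3K27me3 RPM in 2 kb tiles around Olfr1235-ps1 (grey band, the 4 tiles over the gene) for the day 4 pair and both day 8 pairs, against the distance from the lower-coordinate edge of the gene in kb. Control (blue) and cKO (red) libraries peak over the gene, input (grey) does not, and the cKO peak is lower in each pair.

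Other receptor genes with high levels varied in their change. Olfr874, the highest in H3K27me3 on chromosome 9 at 1.72 times input, was lower in all 3 pairs, by -0.27, -0.60 and -0.45 (limma, adjusted p = 0.270). Olfr544, the highest of the chromosome 7 cluster in H3K27me3, was at 2.99 times input, with 5.45, 4.71 and 4.67 RPM in control and 5.42, 6.99 and 4.62 in cKO. Olfr149 on chromosome 9 was the highest in H3K9me3, at 3.48 times input. It had 6.61, 7.83 and 7.18 RPM in control and 5.61, 7.41 and 6.16 in cKO, so that each cKO library was below its own control but the groups overlapped. The same gene was the lowest of its cluster in H3K9me2, at 0.423 times input. On chromosome 2 the highest H3K9me3 was at Olfr1221 (1.88 times input), and the highest H3K9me2 at Olfr1267-ps1 (2.02 times input). On chromosome 7 they were at Olfr543 (1.74 times) and Olfr651 (2.18 times), and on chromosome 9 H3K9me2 was highest at Olfr982 (1.82 times).

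The genes at the low end were as varied. Olfr1057 on chromosome 2 was the lowest of its cluster in both H3K27me3 and H3K9me3, at 0.237 and 0.311 times input. Its H3K9me3 reads were 10, 4 and 6 in control and 14, 9 and 16 in cKO, with changes of 0.12, 2.80 and 1.34 (limma, adjusted p = 0.578; limma-voom, 0.0276). It was named for this difference, which was the largest positive one. Olfr147 on chromosome 9 (0.220 times input) and Olfr619 on chromosome 7 (0.288 times) were lowest in H3K27me3. Olfr954 on chromosome 9 (0.275 times) and Olfr576 on chromosome 7 (0.399 times) were lowest in H3K9me3, and Olfr1131 on chromosome 2 (0.278 times) and Olfr649 on chromosome 7 (0.449 times) in H3K9me2.

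Receptor genes with the largest mean changes rested on few reads. Of genes lower in H3K9me3 in all 3 pairs, Olfr935 went from 14, 14 and 18 control reads to 17, 0 and 4, Olfr1000 from 17, 18 and 12 to 16, 0 and 8, and Olfr1118 from 13, 8 and 14 to 5, 0 and 11. All 3 zeros were in the shallow library. After Olfr1057, the largest positive differences in H3K9me3 were at Olfr905, from 13, 9 and 12 to 21, 9 and 22 reads, and Olfr687, from 4, 7 and 7 to 11, 4 and 8. Olfr687 was at the same time the gene with the largest negative difference in H3K27me3, from 10, 11 and 9 reads to 4 in each cKO library. In H3K27me3, Olfr1044 (-0.96, mean of 3 pairs) and Olfr704 (-0.89) came next, and the largest positive means were at Olfr260-ps1 (1.19), Olfr73 (1.15) and Olfr551 (1.01). Olfr551 went from 14, 15 and 19 reads to 32, 31 and 33. In H3K9me2, the lowest means were at Olfr1123, Olfr637-ps1 and Olfr1263 (-0.83, -0.83 and -0.81) and the highest at Olfr1149-ps1, Olfr153 and Olfr1055 (0.71, 0.62 and 0.59). These genes were picked for their changes and none passed limma after adjustment, while limma-voom called 4 of the 537 in H3K9me3 (0.745%, against 6.46% of all genes), namely Olfr1057, Olfr935, Olfr618 and Olfr27.

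Among tiles with at least 5 input reads, the highest H3K9me3 level of each cluster was in the tile whose central bases are printed above. The chromosome 2 tile near Olfr1155 had 62, 59 and 51 control reads and 72, 30 and 64 cKO reads against 5 in input, or 10.7 times input. The tile near Olfr963 was at 11.7 times and that near Gm1966 at 8.05 times. Scaled to library totals, their mean changes over the 3 pairs were 0.32, -0.12 and -0.14, and in none of them did all 3 pairs change in the same direction. The 100 kb window with the tile near Olfr1155 was also the highest in its cluster, at 1.74 times input, with a mean change of -0.04. In the other 2 clusters the highest windows were chr7:113400001-113500000 (1.98 times input, changes of -0.24, -0.32 and -0.44) and chr9:38400001-38500000 (1.37 times input, changes of -0.14, -0.26 and -0.00).

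Genes of other kinds lie among the receptors, most of them on chromosome 7. The highest H3K27me3 tile of the chromosome 7 cluster, chr7:112936001-112938000, overlapped coding and untranslated exon sequence of Dchs1, a large cadherin of planar cell polarity, and the uncharacterized Gm15645. It held 271, 331 and 303 control reads and 192, 182 and 181 cKO reads against 10 in input, or 24.8 times input. The changes were -0.25 at day 4 and -0.82 and -0.98 at day 8. Its window, with Tpp1 and Mrpl17 beside it, was the highest H3K27me3 window of all 3 clusters, at 3.57 times input. The 76 other protein-coding genes of the intervals had a median H3K27me3 level of -0.085 and a median GC content of 43.2%. Of these, 23 (30.3%) were lower in H3K9me3 in all 3 pairs, a share close to the 28.5% of the Olfr genes, and 11 (14.5%) were higher, with a median day 8 change of -0.08, against -0.28 for the Olfr genes. Over all genes the shares lower and higher were 15.1% and 23.0%.

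The 15 Trim genes of the intervals encode ubiquitin ligases with roles in innate immunity. In H3K9me3, 6 of them were lower and 3 higher, against 15.1% and 23.0% of all genes. The median differences of the Trim genes were -0.14 at day 4 and -0.17 and 0.03 at day 8. The 7 beta-globin genes, silent outside red blood cells, lie within the chromosome 7 receptor array. In H3K9me3, 4 of the 7 were lower in all 3 pairs and 0 higher, against 15.1% and 23.0% of all genes. The median day 8 change of the globin genes was -0.31, against -0.25 for the Olfr genes of that cluster. Hbb-bh1 had the highest level of the globin genes in all 3 marks, at 1.63, 1.69 and 1.39 over input for H3K27me3, H3K9me2 and H3K9me3 (log2), but its single tile held 7 input reads. The other 6 lay between -0.57 and 0.51 in H3K27me3 and between -0.56 and -0.01 in H3K9me3. 0 of the 7 globin genes were called by limma in any mark, as for 0.0% of all genes.

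The genes through which receptor choice and odor signaling work lie elsewhere in the genome, except Cnga4, a subunit of the olfactory cyclic nucleotide-gated channel, which lies inside the chromosome 7 interval. A list of 20 such genes had 21 entries in the annotation, as Ebf1 has 2. Lhx2 and Emx2, homeobox factors of olfactory neurons, had the highest H3K27me3 levels of the list, at 4.25 and 3.98 over input (log2). In the Ebf family of factors, which binds receptor promoters, Ebf3 was at 1.86, Ebf4 at 1.31, Ebf2 at 0.86 and Ebf1 at 0.33. The second Ebf1 entry, a pseudogene with 12 input reads, was at 2.86, and Cnga4 was at 1.56. Omp, the marker of mature olfactory neurons, was at 0.75, Gnal, the olfactory G protein, at 0.99, and Adcy3, the cyclase that makes the second messenger, at 0.55. Of the 21 entries, 16 (76.2%) were above input in H3K27me3, against 44.1% of all genes.

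The other 5 entries were below input. Kdm1a, a histone demethylase, was at -1.69, Ric8b, a chaperone of the olfactory G protein, at -1.21, Ldb1, the partner of Lhx2, at -1.01, Atf5, a transcription factor of olfactory neurons, at -0.83, and Gng13, a G protein subunit of sensory cells, at -0.76. At Lhx2 the difference in H3K27me3 between cKO and control was -0.20 at day 4 and -0.82 and -0.98 at day 8 (limma, adjusted p = 0.294). Of the 21 entries, 9 were lower and 7 higher in H3K27me3 in all 3 pairs, 2 lower and 10 higher in H3K9me2, and 2 lower and 7 higher in H3K9me3. Over all genes, 33.0% were lower and 18.2% higher in H3K27me3, 8.54% and 36.2% in H3K9me2, and 15.1% and 23.0% in H3K9me3. By limma 0 of the 21 entries passed in any mark, as for 0.0% of all genes. At an unadjusted p under 0.05 there were 4, 0 and 2 entries for H3K27me3, H3K9me2 and H3K9me3, against 16.6%, 4.04% and 8.2% of all genes. The median GC content of the entries was 48.7%, against 36.5% for the Olfr genes of the clusters.

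Vomeronasal receptor genes, the pheromone receptors of a second olfactory organ, form similar AT-rich arrays. Of the 403 measured, 164 (40.7%) were lower in H3K9me3 in all 3 pairs and 11 (2.73%) higher, and of the Olfr genes outside the intervals 191 of 712 (26.8%) were lower and 63 (8.85%) higher. Lower H3K9me3 was thus also seen in arrays outside the 3 clusters. Of the 16 trace amine receptor genes, also olfactory receptors but in a GC-richer array (41.6%), 2 were lower and 4 higher. Over all genes the shares lower and higher in H3K9me3 in all 3 pairs were 15.1% and 23.0%.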

How the data were processed

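Per the labels and methods, reads of 19 libraries were trimmed with Trim Galore and aligned with Bowtie2 (version 2.2.9 in the submitters' processing notes) to NCBIM37, keeping alignments of mapping quality 20 or more. Duplicate removal is not stated. The authors deposited the log2 of observed over expected reads per tile, where expected means reads spread evenly over the genome, without input subtraction. The methods give 1 kb tiles, whereas the table holds 2 kb tiles.

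Reads were recovered from the steps of the log2 values. In each library 100% of values below 20 reads were whole within 0.01 of a read, with a tile without reads written as 0.9 of a read. Cluster levels used summed recovered reads and exact tests over libraries. Levels and changes of single genes, tiles and windows used summed reads (0.5 added) per library total, and control levels the 3 control libraries together. Windows, tiles and gene bodies (mean deposited log2 values of tiles with input reads, windows with at least 5 such tiles) were tested at day 8, 2 libraries against 2, with limma 3.58.1 in R 4.3.3 (lmFit, eBayes without trend, Benjamini-Hochberg over all features), and the fit was tested on simulated data. For the GC correction the median of all tiles in the same bin of GC content (width 0.02 as a fraction) was subtracted from the deposited log2 values. The 1% of tiles with the highest input were those above 29 reads. Counting intervals are at 95% and cover counting error only. Genes came from GENCODE vM1 on NCBIM37.

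Rules for naming picked items per cluster and mark. These were the Olfr gene (at least 20 input reads), tile (at least 5) and 100 kb window with the highest control level over input. The Olfr gene with the lowest level was also picked. Per mark and direction, the rules picked the 3 Olfr genes and the tile most changed in the same direction in all 3 pairs (at least 30 reads). All genes of the olfactory list, the globin genes and Dnmt1 were picked too. Not all items picked are printed here, and the most changed tiles are among those left out. The intervals, lists and rules were chosen with earlier results of these data known.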

Additional observations from a re-analysis of the deposited data

Results flagged for a closer look

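H3K27me3 in the chromosome 2 cluster relative to the rest of the chromosome differed between the days. The single day 4 pair gave -0.0088 (cKO minus control, log2), whereas both day 8 pairs were above 0, at 0.08 and 0.24. The difference between the days was not tested, since day 4 had 1 pair.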

How the results depend on the processing

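Levels of the clusters (chromosomes 2, 7 and 9 in that order) varied most with the processing. From the mean of the deposited log2 values they were -0.41, -0.099 and -0.22 (H3K27me3) and 0.076, -0.088 and -0.029 (H3K9me3), with 0.058 for H3K9me2 on chromosome 7. Without the 1% of tiles with the highest input, H3K27me3 was at -0.68, -0.24 and -0.43, H3K9me3 at 0.021, -0.13 and -0.074, and H3K9me2 on chromosome 2 at -0.072. After GC correction, which rests on the deposited values, H3K27me3 was at -0.012, 0.14 and 0.17, H3K9me2 at 0.19, 0.089 and 0.11 and H3K9me3 at 0.29, -0.012 and 0.17. Against the whole genome, H3K27me3 was at -0.59, -0.10 and -0.38, H3K9me3 at -0.14, -0.081 and -0.12, and H3K9me2 on chromosomes 2 and 7 at -0.065 and 0.035. Leaving out 1 library at a time gave -0.51 to -0.44, -0.27 to -0.24 and -0.42 to -0.39 for H3K27me3 and -0.59 to -0.50, -0.15 to -0.11 and -0.24 to -0.16 for H3K9me3, where 5 libraries allow no p below 0.0625.

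Between marks, the deposited means gave -0.48 (H3K27me3 minus H3K9me3) and -0.035 (H3K9me2 minus H3K9me3) on chromosome 2, and -0.012 and 0.15 on chromosome 7. Leaving out the highest-input tiles, which for comparisons between marks or clusters was chosen after seeing the data, gave -0.71 and -0.093 on chromosome 2, and 0.11 and -0.049 for H3K9me2 minus H3K9me3 on chromosomes 7 and 9. Between clusters, the deposited means gave -0.19 for H3K27me3 (chromosome 2 minus 9), -0.018 for H3K9me2 (2 minus 7), and 0.16, 0.11 and -0.058 for H3K9me3 (2 minus 7, 2 minus 9, 7 minus 9). Without the highest-input tiles these were -0.25, -0.047, 0.15, 0.095 and -0.056. GC correction, for these comparisons also chosen after seeing the data, turned H3K27me3 minus H3K9me2 to 0.051 and 0.062 (7 and 9) and H3K27me3 minus H3K9me3 to -0.31 and 0.15 (2 and 7), with -0.0056 on chromosome 9. H3K9me2 minus H3K9me3 was then -0.10, 0.10 and -0.067. Between clusters it gave -0.18 and -0.029 for H3K27me3 (2 minus 9, 7 minus 9), -0.018 for H3K9me2 (7 minus 9), and 0.31, 0.12 and -0.19 for H3K9me3.

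For the changes, the deposited means gave day 4 values of 0.016 and 0.034 for H3K27me3 (chromosomes 2 and 9) and -0.11, -0.060 and -0.078 for H3K9me2, and day 8 values of -0.25 for H3K9me2 (2) and -0.29 and -0.14 for H3K9me3 (2 and 7). Without the highest-input tiles, day 4 values were -0.081 for H3K9me2 (2) and 0.0019 for H3K27me3 (9). GC correction gave -0.11, -0.047 and -0.090 for H3K9me3 at day 8, and at day 4 -0.059, -0.046 and -0.034 for H3K9me3, 0.048, 0.035 and 0.066 for H3K27me3 and -0.074 for H3K9me2 (2). Against the whole genome, H3K9me3 at day 8 was at -0.22 and -0.23 (7 and 9), and H3K27me3 on chromosome 7 at 0.0045 at day 8 and -0.018 at day 4. H3K27me3 on chromosome 9 at day 8 was at -0.0056 without replicate 2 and 0.075 without replicate 1.

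The mean share of tiles at least 4-fold higher and lower at day 8 was 1.36% and 0.662%, against 0.766% and 1.29% in the rest of the 3 chromosomes (H3K27me3). It was 0.859% and 0.662%, against 2.41% and 0.595% (H3K9me2) and 0.512% and 3.45%, against 0.81% and 2.21% (H3K9me3). In 10 kb windows the 2-fold shares were 1.63% and 0.951%, against 0.702% and 2.29% in the rest of the 3 chromosomes (H3K27me3). They were 0.875% and 1.03%, against 5.47% and 0.511% (H3K9me2) and 1.33% and 5.51%, against 1.07% and 2.77% (H3K9me3), and for H3K27me3 in centred tiles 8.09% and 8.43%, against 5.97% and 10.3%. Settings chosen after seeing the data gave 60 windows lower in H3K9me3 and 42 lower in H3K9me2 in all pairs after GC correction, and 81 higher in H3K27me3 without the day 4 pair (60.4%, against 48.5% of all windows).

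Of H3K9me3 windows, limma called 41 with a trend (30.6%, against 17.3% of all windows) and limma-voom 59 (44.0%, against 28.8%). When centred, with all tiles, in 10 kb windows or after GC correction 0 were called, as for 0.0% of all windows in each. Leaving out 1 library, with the lone sample of its group assumed to vary like the other group, gave 0 to 89 windows for H3K9me3, 0 to 11 for H3K27me3 and 0 to 4 for H3K9me2, and 0 to 618 tiles for H3K9me3. For H3K27me3 and H3K9me2, the highest of these window counts was a smaller share in the clusters than among all windows. For H3K9me3, the highest window and tile counts were larger shares in the clusters. They came from the fit in which the shallow library was the only cKO library. A trend and limma-voom called 9 and 12 tiles for H3K27me3 (0.142% and 0.189%, against 0.272% and 0.375% of all tiles). They called 1 and 2 for H3K9me3 (0.0158% and 0.0315%, against 0.00853% and 0.0473%). Limma-voom called 1 receptor gene for H3K27me3 (0.186%, against 0.321% of all genes) and 4 for H3K9me3 (0.745%, against 6.46%). The cause of these shifts was not tested.

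Same-numbered day 8 libraries had correlated deviations (r = 0.59, 0.45 and 0.17 over windows, H3K27me3, H3K9me2 and H3K9me3), but the labels tie them only by number. With the replicate block, 12 windows were called for H3K27me3 (8 higher, 5.97% against 8.57% of all windows, and 4 lower, 2.99% against 10.5%), 0 for H3K9me2 and 47 for H3K9me3 (35.1%, against 17.5%), and 0 tiles and 0 receptor genes. Between marks the replicate block left H3K27me3 minus H3K9me2 at -0.51, -0.22 and -0.29, H3K27me3 minus H3K9me3 at -0.12 (7) and -0.19 (9), and H3K9me2 minus H3K9me3 at 0.60 (2). None passed the threshold, with a lowest adjusted p of 0.0703 (exact sign-flip test, in which 6 pairs allow no p below 0.03125). Depth was a median of 3 to 17 reads per tile, and its part in the number of tiles called was not tested.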
